A study of Arabidopsis thaliana with 2 samples.

Results

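The genes described here are those whose deposited signal was at least 2-fold higher in trichome sap than in pavement cell sap of Arabidopsis thaliana leaves. They were chosen by the measured values themselves: the mean log2 signal of a gene had to be at least 1 higher on the trichome array than on the pavement array, and its trichome signal had to lie above a background ceiling of 2.583, explained below. Of 13356 genes with a named probe set, 97 met both thresholds. The rule sets aside 11 genes by name (a protease inhibitor, a cytochrome P450, a disease resistance gene, a lipid transfer protein and 7 extensins), of which 9 met the thresholds, and this left 88 members, or 0.659% of the genes. Since the difference between the arrays chose them, their differences are given as a description and not as a test. The whole-table figure beside them is that 97 of 13356 genes (0.726%) were called by this rule, and 5.94% of the 1634 genes above the ceiling in trichome. The mirrored rule called 677 genes (5.07%) higher in pavement.

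The series holds 2 arrays, 1 for sap of trichomes and 1 for sap of pavement cells, both from leaves of the wild-type accession Columbia-0 at 5 weeks of age. Plants grew at 20 and 18 °C with 16 h of light and 8 h of dark, and the sap was drawn from the cells with microcapillaries. No mutation, transgene or treatment is given for either group. The labels do not say how many cells or plants each array represents, and with 1 array per cell type no value here has a replicate error.

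Leaf trichomes of Arabidopsis are single, branched hair cells of the epidermis that stop dividing, enlarge while copying their DNA without division, and build a thick wall. They are known for storing and making defence compounds at the leaf surface. Pavement cells are the flat, interlocking cells around them, which cover most of the leaf, and both types arise from the same protoderm. Genes that differ between the neighbours can therefore belong to the wall, to defence, to membrane traffic and growth, or to the regulators of cell identity.

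Values were deposited on the log2 scale for each probe set, and the reading of a gene is the mean over its probe sets. Most of both arrays was dim: the median probe set read 2.06 for trichome and 2.03 for pavement. The background ceiling of 2.583 was the highest reading among the 27 control probe sets for Bacillus transcripts, which a plant does not make, and 3169 trichome and 4218 pavement probe sets lay above it. All 18 probe sets for hybridisation controls, bacterial and phage transcripts that the usual procedure adds to a sample, were dimmer for trichome, with differences from -3.54 to -1.94 (median -3.15). A difference between the arrays thus depends on how they are scaled, as described at the end. Whether fewer transcripts per cell, fewer cells drawn or the scale of the array lie behind a low signal cannot be told apart here.

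The members were mostly dim genes that read above background on the trichome array alone. Their trichome signals ran from 2.64 to 6.08 with a median of 3.36, and their pavement signals from 1.48 to 4.59 with a median of 1.999. The median difference was 1.26 as deposited, and 0.77 (at least 1.71-fold) once background readings were raised to the ceiling. Over all 13356 genes the medians were 0.02 and 0; the rule itself sets the members apart from these. By size, 37 members had differences from 1 to 1.2, a further 25 lay under 1.5, 17 lay between 1.5 and 2, and 9 were at 2 or more. In pavement, 72 of the 88 (81.8%) were at or under the background ceiling, so that only a lower limit of their fold is known. The other 16 were measured on both arrays. Of all probe sets on the pavement array, only 18.5% read above the ceiling, so a reading at background there does not set the members apart. With every reading at or under the ceiling raised to it, 35 members kept a difference of at least 1, while 53 did not. Over all genes 43 (0.322%) were called in that way.

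**Figure D1:**
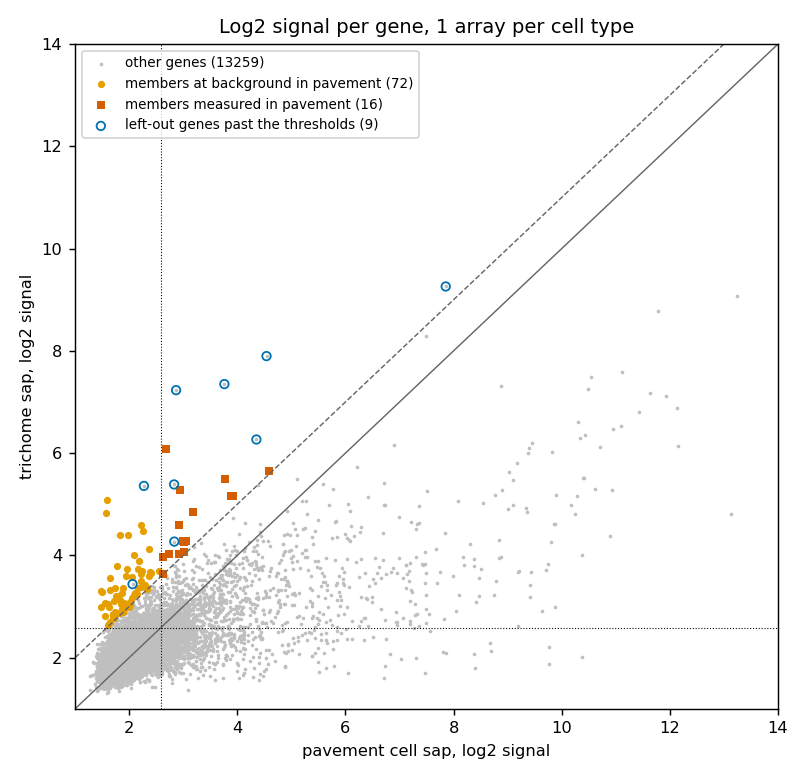
Log2 signal of each of 13356 genes in pavement cell sap (horizontal) and trichome sap (vertical), with equal signal as a solid line, a difference of 1 as a dashed line the background ceiling of 2.583 as dotted lines, other genes in grey, members in orange (circles at background in pavement, squares measured there) and the 9 set-aside genes past the thresholds as blue rings. The 88 members form a narrow fringe at the dim end, 72 of them left of the ceiling in pavement, and the bright pavement genes lie far below the line of equal signal.

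For the 16 members above background on both arrays neither reading is a bound, but their folds hold only at the deposited scale. Their median difference was 1.28 as deposited, 2.40 with a lowess correction and 3.11 after quantile normalization, settings described at the end. For the 72 members at background in pavement these medians were 1.24, 1.42 and 1.78, so scaling moved the 16 more. The highest was AT1G06320, which read 6.08 in trichome and 2.69 in pavement (10.5-fold), although its pavement signal was close to the ceiling. It also had the highest trichome signal of the members. AT1G76940, of the RNA-binding family with an RNA recognition motif, read 5.27 in trichome and 2.94 in pavement (5.05-fold). AT3G01890, of the SWIB domain family found in chromatin remodelling complexes, read 5.49 and 3.77 (3.28-fold). These genes were well above the ceiling in trichome sap and low but detectable in pavement sap.

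AT4G35985, of the senescence- and dehydration-associated family, read 4.85 in trichome and 3.17 in pavement (3.21-fold). AT3G01860 read 4.59 and 2.92 (3.18-fold). The other 11 of the 16 differed by less, between 1.01 and 1.34. In these the pavement signal was a sizeable part of the trichome signal, and a change of the threshold would move them out. LCB2, a subunit of serine palmitoyltransferase, the enzyme that starts sphingolipid synthesis, read 5.15 in trichome and 3.93 in pavement (2.34-fold). AT2G30270, of the LURP-one-related family, read 5.15 and 3.88 (2.42-fold). AT1G22890 read 5.64 and 4.59 (2.07-fold) and had the highest pavement signal of the members.

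AT4G29440, of a family that regulates the membrane-remodelling ATPase Vps4, read 4.28 in trichome and 2.9997 in pavement (2.43-fold). AT4G32420, of the cyclophilin family of peptidyl-prolyl isomerases, read 4.28 and 3.06 (2.33-fold). AT2G26110 read 4.27 and 3.01 (2.38-fold). These 3 were above the background ceiling on both arrays, but their pavement readings lay close to the stricter ceiling of 3 tried at the end. AT4G29440 would be at background by it. AT5G35740, of the family with an X8 carbohydrate-binding domain, read 4.06 and 3.01 (2.07-fold). AT4G37660, of the ribosomal protein L7/L12 type, read 4.02 and 2.73 (2.45-fold). AT5G25770, of the alpha/beta-hydrolase family, read 4.02 and 2.92 (2.14-fold). The last of the 16 lay just above the ceiling in pavement. AT5G26070, of the hydroxyproline-rich glycoprotein family, read 3.98 and 2.63 (2.54-fold), and AT1G71730 read 3.63 and 2.63 (2.01-fold).

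Genes of like signal mostly leaned to pavement, and the 16 stood on the other side. For each of them the 100 genes nearest in mean level had a negative median difference, from -3.04 to -0.45. For AT1G22890, whose own difference was 1.05, that median was -3.04. For LCB2 (1.23) it was -1.99, for AT2G30270 (1.27) it was -1.94, and for AT1G06320 (3.39) it was -1.82. The members were picked for a positive difference, so this contrast describes where they lie and tests nothing.

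**Figure D2:**
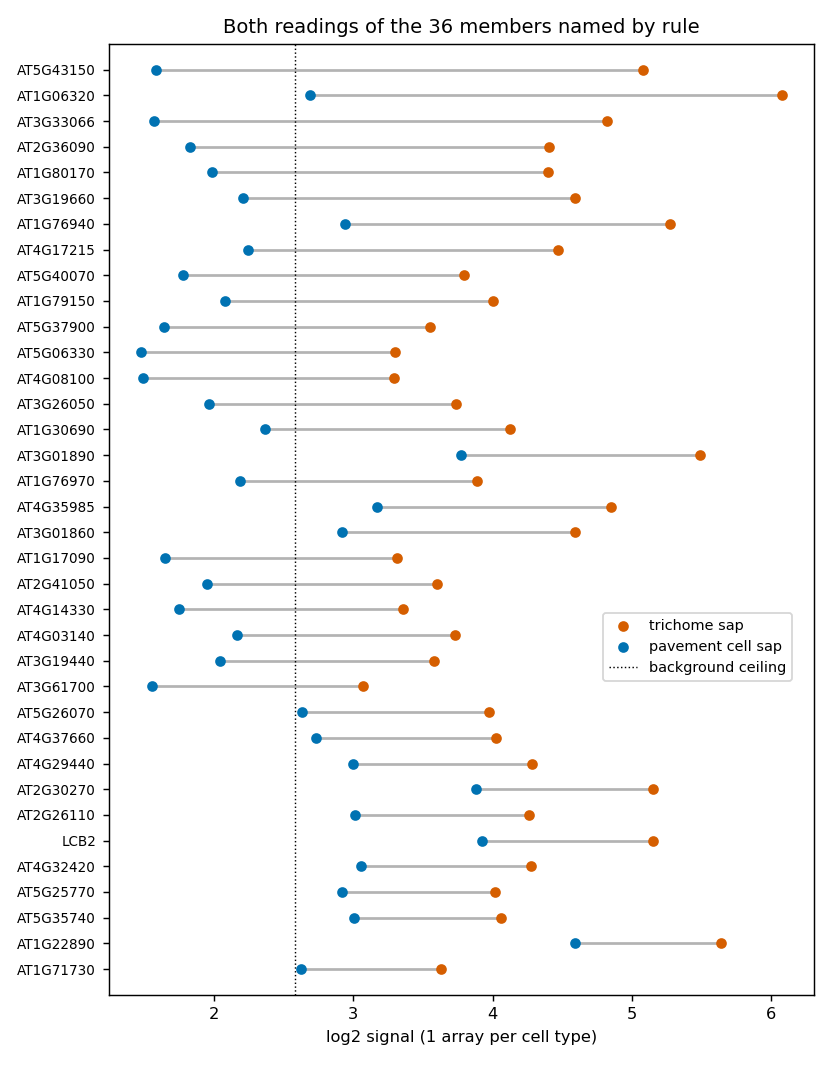
Log2 signal in trichome sap (orange) and pavement cell sap (blue) of the 25 members with the widest difference and of the other members above background in pavement, 36 in all, ordered by difference. The grey bar is the difference and the dotted line the background ceiling of 2.583; 20 of the 36 have a pavement reading left of it.

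Among the members at background in pavement, AT5G43150 had the widest difference. It read 5.08 in trichome and 1.58 in pavement, at least 5.64-fold higher in trichome when pavement is set at the ceiling. AT3G33066, annotated as a pseudogene, read 4.82 and 1.57 (at least 4.71-fold). Its only probe set has a suffix that marks it as not unique to a transcript. AT3G19660 read 4.59 and 2.21 (at least 4.03-fold), and AT4G17215 read 4.47 and 2.25 (at least 3.71-fold). The probe sets of these 4 gave clear signals in trichome sap, with none above background in pavement sap.

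AT1G79150 was the only member with more than 1 probe set, and its probe sets disagreed. The trichome and pavement readings were 5.82 and 2.16 for one of them (difference 3.66) and 2.19 and 2.01 for the other (difference 0.18), whose readings were both at background. The mean of 4.01 and 2.08 (at least 2.68-fold) therefore rests on 1 probe set. Over the 146 genes with several probe sets, the differences of the same gene had a pooled SD of 0.52, which was 0.95 in the 36 of these genes that had signal above background. Differences near 1 are of the size of that spread, which is between probe sets of a gene and not between repeat measurements. It leaves out the spread between plants and samplings.

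The members are described next by the protein families their loci are known for. Of the 88, 4 carry a gene symbol of their own in the reference table. The families of the others are background knowledge of these loci, and 39 members were grouped in this way after their values were seen, so the groups say nothing on whether a function is over-represented.

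Members of the wall and cell surface families were 8, with differences from 1.05 to 2.42 and a median of 1.24. AT1G80170, of the pectin lyase-like family, whose enzymes act on the pectin of the wall, read 4.40 in trichome and 1.98 in pavement (at least 3.53-fold). AT5G06330, of the family of LEA hydroxyproline-rich glycoproteins, read 3.30 and 1.48 (at least 1.64-fold). The subtilase gene AT4G21630, from a family of secreted proteases, read 3.20 and 1.79 (at least 1.54-fold). All of these were at background in pavement. The hydroxyproline-rich glycoprotein gene AT5G65660 read 3.42 and 2.29 (at least 1.79-fold). AT5G15780, of the pollen Ole e 1 allergen and extensin family, read 2.94 and 1.88 (at least 1.28-fold), and the proline-rich extensin-like gene AT4G08380 read 2.88 and 1.82 (at least 1.23-fold). With pavement at the ceiling, 3 of the 8 kept a difference of at least 1 (AT1G80170, AT5G26070 and AT5G35740).

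The 5 members of defence-related families were mostly faint. AT1G66100, of the thionins, small antimicrobial peptides, read 2.94 in trichome and 1.87 in pavement (at least 1.28-fold). The lipid transfer protein gene AT5G55450 read 2.78 and 1.71 (at least 1.15-fold). AT2G34930, of the leucine-rich repeat class of disease resistance genes, read 3.25 and 2.11 (at least 1.59-fold). AT3G55840, a relative of the beet nematode resistance gene Hs1pro-1, read 3.37 and 2.17 (at least 1.73-fold). These 4 were at background in pavement and none of them kept a difference of 1 against the ceiling, whereas AT2G30270, described above, was above the ceiling on both arrays.

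Membrane traffic and lipid transfer families gave 7 members, with a median difference of 1.39. AT1G30690, of the Sec14-like family that carries phosphatidylinositol between membranes, read 4.13 in trichome and 2.37 in pavement (at least 2.92-fold). AT1G76970, with the ENTH/VHS and GAT domains that bind ubiquitinated cargo, read 3.89 and 2.18 (at least 2.47-fold). A further gene with these domains, AT2G38410, read 3.05 and 1.61 (at least 1.38-fold). Both of these were at background in pavement. AT1G13340, of the same family of Vps4 regulators as AT4G29440, read 3.24 and 2.14 (at least 1.58-fold). AT1G31780, a subunit of the COG complex that tethers vesicles at the Golgi, read 3.10 and 1.71 (at least 1.44-fold), and AT5G47490, related to the SEC16 scaffold of vesicle exit sites, read 3.39 and 2.22 (at least 1.75-fold). Of the 7, 3 kept a difference of at least 1 against the ceiling (AT1G30690, AT1G76970 and AT4G29440).

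Families of gene regulation and protein turnover gave 9 members, with a median difference of 1.71. The F-box gene AT2G36090, of the family that picks proteins for ubiquitination, read 4.41 in trichome and 1.83 in pavement (at least 3.54-fold). The MADS-box gene AT5G40070, of a family of transcription factors, read 3.80 and 1.77 (at least 2.32-fold). The basic helix-loop-helix gene AT2G22760 read 3.63 and 2.22 (at least 2.07-fold). Each of these was at background in pavement and kept a difference of at least 1 against the ceiling. AT5G37900, of the SINA-like family of ubiquitin ligases, read 3.55 and 1.64 (at least 1.96-fold). The FRIGIDA-like gene AT4G14900 read 3.22 and 2.09 (at least 1.56-fold). Fainter still were MED19A, a subunit of the Mediator complex that links transcription factors to RNA polymerase, at 2.83 and 1.71 (at least 1.18-fold), and the F-box gene AT2G26850 at 2.77 and 1.73 (at least 1.14-fold). The other members of the group were AT1G76940 and AT3G01890.

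A pair of members belongs to microtubule families. AT3G26050, of the TPX2 family of microtubule-associated proteins, read 3.74 in trichome and 1.96 in pavement (at least 2.23-fold). The kinesin gene AT4G14330, from a family of motors that run on microtubules, read 3.36 and 1.75 (at least 1.71-fold). Both were at background in pavement.

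Enzymes of metabolism made up 8 members, with differences from 1.06 to 1.56. AT4G03140, of the short-chain dehydrogenase family, read 3.73 in trichome and 2.16 in pavement (at least 2.21-fold). The alpha/beta-hydrolase gene AT2G05260 read 3.68 and 2.39 (at least 2.14-fold). AER, an alkenal reductase that detoxifies reactive aldehydes from lipid breakdown, read 3.60 and 2.36 (at least 2.03-fold). With LCB2 and AT5G25770, these made 5 of the 8 that kept a difference of at least 1 against the ceiling. The dioxygenase gene AT1G52820 read 3.26 and 2.11 (at least 1.60-fold), the methyltransferase gene AT4G34360 read 3.07 and 1.91 (at least 1.40-fold), and the O-methyltransferase gene AT1G51990 read 2.71 and 1.65 (at least 1.09-fold), close to the lower edge of the group.

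Of the remaining members among the 25 widest differences, AT4G08100, a pseudogene, read 3.29 in trichome and 1.49 in pavement (at least 1.63-fold). AT1G17090 read 3.31 and 1.65 (at least 1.66-fold). AT2G41050 read 3.60 and 1.95 (at least 2.03-fold). These were all at background in pavement. AT3G19440 read 3.58 and 2.04 (at least 1.996-fold), and AT3G61700 read 3.07 and 1.55 (at least 1.40-fold).

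The 31 members not yet described, for which no family is given, were all at background in pavement, with signals from 1.48 to 2.55, and read 2.64 to 3.69 in trichome. Their differences lay between 1.0002 and 1.51, and between 0.06 and 1.11 with pavement at the ceiling. They were AT1G59850, AT2G01640, AT1G64050, AT5G60730, AT2G06820, AT3G49150, SGP2, AT2G38150, AT2G07714, AT3G43500, AT2G37160, AT2G16410, AT5G48860, AT2G38890, AT4G10890, AT5G44090, AT3G53680, AT4G37090, AT2G02515, AT2G15750, AT5G66290, AT1G35610, AT3G18250, AT5G16220, AT1G77750, AT2G05810, AT1G50910, AT5G57170, AT3G42340, AT5G61360 and AT1G77600. SGP2 is a small GTP-binding protein, and the reference table lists RPS13, a ribosomal protein name, for AT1G77750.

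Since a difference depends on how the arrays are scaled, the members were also placed by rank. A rank does not change when an array is rescaled as a whole. Rank 1 is the highest signal of the 13356 genes; a signal also depends on the probe set, so a rank orders readings and not amounts of transcript. All 88 members ranked higher in trichome than in pavement, with a median rank of 445.5 in trichome and 6726.5 in pavement. The rule chose them by the same readings, so this outcome was nearly set in advance. The ranks describe where the members lie and test nothing. AT1G06320 ranked 27 in trichome and 1814 in pavement. AT1G22890 ranked 32 and 385, AT3G01890 ranked 37 and 655, and AT1G76940 ranked 47 and 1347. Of the 100 brightest trichome genes 12 were members, and of the 1000 brightest 82 were. In pavement none of the 200 brightest genes and 4 of the 1000 brightest were members. Ranks among genes at background, such as 12891 for AT5G43150 in pavement, carry no order of expression.

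**Figure D3:**
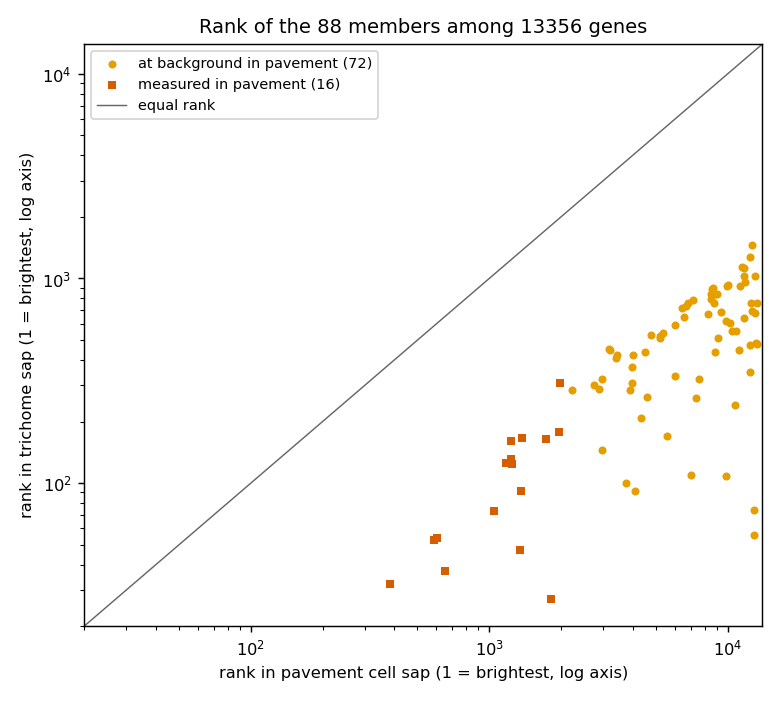
Rank of the 88 members among 13356 genes in pavement cell sap (horizontal) and trichome sap (vertical), rank 1 being the brightest, on log axes. All members lie below the line of equal rank; the 16 measured in pavement (squares) rank between 27 and 308 in trichome and between 385 and 1990 in pavement.

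Some features of the members were not used by the rule. Of the 87 with an annotated biotype, 81 were protein-coding and 6 (6.90%) were pseudogenes: AT3G33066, AT4G08100, AT2G06820, AT2G16410, AT2G15750 and AT3G42340. Pseudogenes made up 7.44% of all genes measured and 2.71% of those above the ceiling in trichome. All 6 were at background in pavement and read 2.90 to 4.82 in trichome. The annotated span of the members, introns included, had a median of 1928 bases, beside 2105 over all genes and 2182 over genes above the ceiling in trichome. Probe sets whose suffix marks them as not unique to a transcript gave the values of 2 members, AT3G33066 and AT2G07714, which is 2.27% beside 2.12% of all genes. For 9 members the trichome reading, and for 17 the pavement reading, was exactly that of at least 1 other probe set on the same array.

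In the annotated gene order, 3 pairs of genes that met the thresholds lay within 5 positions of each other. AT3G01860 and AT3G01890, both measured in pavement, are 3 positions apart, and the gene AT3G01880 between them gave background readings, 1.84 for trichome and 1.83 for pavement. AT5G26070 lies beside the extensin gene AT5G26080, which met the thresholds but is set aside by name and read 3.44 in trichome and 2.06 in pavement. AT2G38890 (2.89 and 1.74) lies 3 positions from the protease inhibitor gene AT2G38870, which is also set aside and read 7.23 and 2.87.

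The edge of the group was dense. Just inside it were AT1G77600 with a difference of 1.0002, AT5G61360 with 1.0045 and AT3G42340 with 1.01. Just outside were AT5G42050, which read 3.81 in trichome and 2.82 in pavement (0.99), AT5G45350 (0.99) and AT5G28240 (0.99). In all, 77 genes above the ceiling in trichome, these 3 included, had differences from 0.8 to 1. The lowest trichome signals among the members were 2.64 for AT5G16220, 2.71 for AT1G51990 and 2.77 for AT2G26850, and 0 genes with a difference of at least 1 lay at or under the ceiling in trichome.

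The labels were set against markers of the cell types that leaf sap could hold. Of 81 listed markers 20 had a named probe set, and 0 of these were members. Members made up 0.659% of all genes, so 0 of 20 says nothing on the members or the labels. Of the 4 trichome regulators measured, SIM, which keeps trichome cells from dividing, lay above the ceiling, at 2.79 in trichome and 2.06 in pavement, and TRY, GIS and ATMYC1 were at background on both arrays. The summed signal of the 4 was 4.18 in trichome and 3.96 in pavement on the log2 scale. The defining trichome factors GL1, GL2, GL3 and TTG1 had no named probe set, so the trichome label could not be checked against them. Of 7 genes of trichome shape, a pair ran the other way. TBR, which trichomes need to lay down wall cellulose, had a signal of 6.83 in pavement and a background reading of 2.07 in trichome (difference -4.76). KIC, a calcium-binding regulator of trichome branching, read 7.47 in pavement and 3.47 in trichome (difference -4.00). The other 5 were at background on both arrays. ACR4, the only epidermal marker measured, was at background on both arrays.

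Some markers of other cells differed between the arrays. The guard cell lineage genes MUTE, FAMA and SPCH, all 3 of those measured of 11 listed, read 2.96, 2.87 and 2.62 in trichome and 2.06, 1.99 and 2.003, at background, in pavement, and their summed log2 signal was 4.41 in trichome and 3.60 in pavement. They lean the same way as the members, but 0 of them met the member thresholds, and SPCH lay just above the ceiling in trichome. Their differences, from 0.61 to 0.90, were under the probe set SD of 0.95 in genes with signal above background. The summed pavement signal adds readings at background. The part of these genes in the members' differences was not tested. The 4 photosynthesis genes measured, of 14 markers listed for mesophyll, were higher in pavement, with a median difference of -5.21. Their summed log2 signal was 11.1 in pavement and 5.83 in trichome, and all 4 also read above the ceiling in trichome. The vascular gene SWEET11 was at background on both arrays.

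How many genes the thresholds called depended on how the arrays were scaled. When a lowess curve of difference against mean level was subtracted, 87 of the 88 kept a difference of at least 1, the exception being AT5G16220 at 0.98, and the median was 1.52. After quantile normalization all 88 did, with a median of 1.90. Both medians lay above the 1.26 as deposited, and the members had been chosen at 1 or more. That they stayed is therefore no check on the calls. Centred on the hybridisation controls, which adds 3.15 to every difference and so cannot take a member out, the median was 4.41. These settings also brought in genes that are not members: the same thresholds then called 269, 373 and 1439 genes, in place of 97. How far a gene must exceed pavement to stand out thus depends on a scale that the arrays do not settle.

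**Figure D4:**
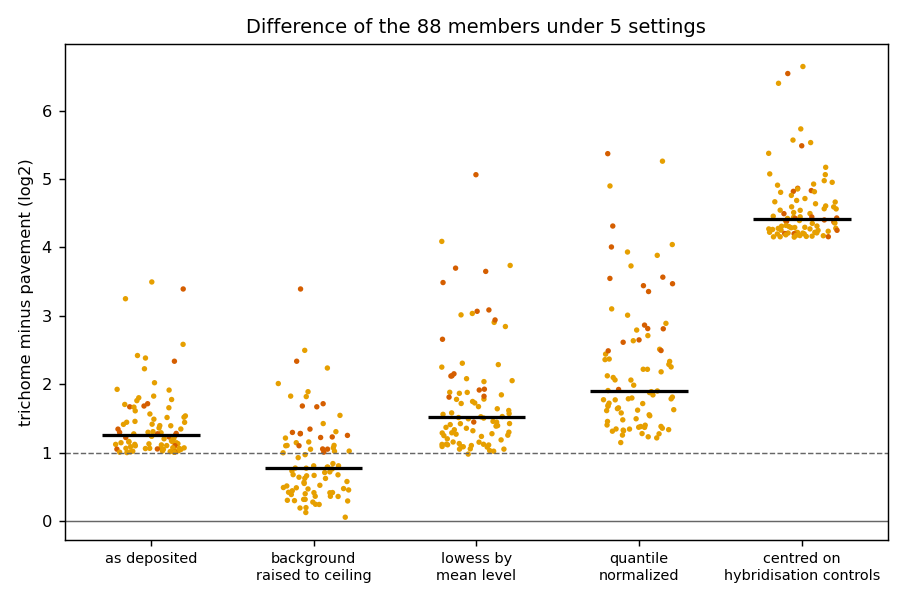
Trichome minus pavement log2 difference of the 88 members (points; dark orange for the 16 measured in pavement) as deposited and under 4 other settings, with black bars at the medians (1.26, 0.77, 1.52, 1.90 and 4.41 from left to right) and a dashed line at 1. Raising background readings to the ceiling takes 53 members under the line.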

How the data were processed

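The authors deposited log2 signals per probe set, made with RMA per the submitters' processing notes; its version and which arrays were normalized together were not given in the sources used here, and the log2 scale was read from the range of the values. Each value comes from 1 array, amplified in 1 round and labelled from the 3′ end per the labels' protocols, so a transcript can be missed by probes that lie away from it. The number of arrays limits the precision, and no p-value was computed.

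Of 22810 probe sets, 13513 named exactly 1 gene in the platform annotation; all of these were averaged by gene identifier into 13356 genes. For 13436 of the 13513, the name came from the RefSeq table of TAIR10.1, and the others kept the annotation's name. Members were called at a difference of at least 1 with a trichome signal above the background ceiling of 2.583, which the rule gives to fewer decimals. Folds against readings at or under the ceiling are lower limits. Lowess (span 0.3) used statsmodels 0.14.6 in Python 3.11.15. The calling step was tested on simulated data, with noise below the probe set spread and a shift wider than the median member difference. It therefore says nothing on calls near a difference of 1. The members and lists were chosen with earlier results of these data known. Values are given for the 25 widest differences and all members measured in pavement; genes outside that rule were chosen by family after their values were seen. Family counts from fixed keywords gave no information, because the symbols and synonyms in the table matched a keyword for 185 genes (1.39%) and 0 members. Loci of many cell type markers were entered by hand from background knowledge. Protein and promoter features were not analysed here.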

Additional observations from a re-analysis of the deposited data

Results flagged for a closer look

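Signal outside the gene comparison also met the thresholds of the members. No gene is listed for 8730 of the plant probe sets, of which 70 (0.802%) were at least 1 higher in trichome and above the ceiling there, 60 of them at background in pavement, with a median difference of 1.34. The widest of these differences was 5.73, with signals of 8.90 for trichome and 3.17 for pavement. Among 503 probe sets with several genes listed, 3 (0.596%) met the thresholds, all at background in pavement, and the widest read 4.69 in trichome and 1.53 in pavement. With no control samples, these were compared with the background ceiling alone.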

How the results depend on the processing

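No paired analysis was possible because each group has 1 array. The count of members was 164 with a difference threshold of 0.8 and 26 with 1.5, and 38 with a trichome floor of 3.5, beside 88 as reported. It was 35 with background readings raised to the ceiling, 259 with the lowess correction, 363 after quantile normalization and 1428 when centred on the hybridisation controls. The counts over all genes, set against 97, were 174, 32, 46, 43, 269, 373 and 1439 in the same order. The median difference over the members, 1.26 as deposited, was 0.77 with background readings raised to the ceiling, 1.52 with the lowess correction, 1.90 after quantile normalization and 4.41 when centred on the controls. The 16 members measured in pavement became 31 with the ceiling at the second highest Bacillus reading (2.21) and 8 with a ceiling of 3. Of the other settings tried, without a floor the count stayed at 88, with the highest probe set per gene it was 89, and without non-unique probe sets 86. Leaving out, after the data were seen, the members with a repeated trichome reading gave 79, and leaving out pseudogenes gave 82. Signs of single members are not given as a sign of stability, since the members were chosen for a positive difference and neither centring on the controls nor raising background readings could turn one. For single values a shift under the probe set SD of 0.52 was taken as no change. That limit is narrow, since the SD was 0.95 in genes with signal above background. It was applied to the 36 members with the widest differences or measured in pavement. Of these, 14 moved with background readings raised, 19 with the lowess correction, 35 after quantile normalization and 36 when centred on the controls. Low signal over background limits the 72 members that are known in pavement only as bounds.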
